A study of Mus musculus with 11 samples.

Results

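The genes described here are 8 epithelial genes of pancreatic carcinoma. Gata6, Hnf4a, Foxa2 and Sox9 encode transcription factors of gut and duct epithelium, Muc1 encodes a membrane mucin, Tff1 and Tff2 encode trefoil factors, and Agr2 encodes a protein disulphide isomerase. They were named as genes of the classical, gut-like carcinoma state and of pancreatic duct, and not by their values, and are 8 of the 54232 genes in the count table. Each symbol matched 1 Ensembl identifier. RNA was sequenced from 11 orthotopic tumours of female mice, 6 from hosts in which the gene of protein kinase N2 (PKN2) had been deleted (KO, replicates A to F) and 5 from PKN2 WT hosts (replicates A to E), to ask how loss of PKN2 in the host affects gene expression in the tumour. A tumour is written below by its group and letter, such as KO A. All hosts were C57BL/6 mice, heterozygous for Rosa26 CreERT2, a tamoxifen-activated Cre recombinase, and 24 to 28 weeks old. KO hosts carried floxed Pkn2 on both alleles, WT hosts carried none, and both groups received tamoxifen. Each pancreas was implanted with 1000 TB32048 cells, a line from the pancreatic tumour of a female KPC mouse, a genetic model of the disease, whose own Pkn2 was intact.

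This design limits what the values stand for. Rosa26 drives Cre in most cell types, so the deletion was in the host as a whole and not in stellate cells alone. The carcinoma cells came from 1 line, with no second line beside it. Each library was made from a piece of whole tumour, in which fewer cells of a type and less RNA per cell cannot be told apart. Pkn2 itself had a mean of 96.6 CPM (counts scaled to a common total, with TMM factors) over the KO tumours and 96.7 CPM over the WT tumours, and its log2 fold change was -0.0023 (edgeR, SE 0.21, adjusted p = 0.996). Since carcinoma cells keep the gene, its level does not check the genotype.

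Pancreatic carcinomas are commonly divided into a classical state, which keeps a gut-like epithelial programme, and a basal-like state, which loses it and takes on squamous features. GATA6, HNF4A and FOXA2 are endoderm transcription factors that maintain the classical programme, and SOX9 marks duct cells and their progenitors. Among the products of that programme are secreted mucins, the trefoil peptides that are packed with them, and AGR2, which helps mucins to fold in the endoplasmic reticulum.

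Promoter sequences are shown for Hnf4a, which has alternative start sites, Muc1, which varied strongly between tumours, and Agr2, which was hardly expressed. Each window holds 250 bases before and 50 bases after a start site, from RefSeq on build GRCm38.p6, and is written 5′ to 3′ on the strand of the gene. Windows were found for 4 of the 8 genes, Hnf4a, Foxa2, Muc1 and Agr2. Capitals mark matches to the motifs searched for, on either strand. The upstream Hnf4a window lies at chr2:163506607-163506906 on the plus strand, and the downstream window at chr2:163546905-163547204 on the plus strand, 40298 bases apart. The Muc1 window is chr3:89228806-89229105 on the plus strand, and the Agr2 window is chr12:35992675-35992974 on the plus strand.
Hnf4a upstream: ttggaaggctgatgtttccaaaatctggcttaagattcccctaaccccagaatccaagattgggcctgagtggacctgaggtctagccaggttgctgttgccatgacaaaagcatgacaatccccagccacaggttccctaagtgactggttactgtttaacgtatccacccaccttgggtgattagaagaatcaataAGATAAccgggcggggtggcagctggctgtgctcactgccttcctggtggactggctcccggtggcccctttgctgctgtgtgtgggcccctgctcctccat
Hnf4a downstream: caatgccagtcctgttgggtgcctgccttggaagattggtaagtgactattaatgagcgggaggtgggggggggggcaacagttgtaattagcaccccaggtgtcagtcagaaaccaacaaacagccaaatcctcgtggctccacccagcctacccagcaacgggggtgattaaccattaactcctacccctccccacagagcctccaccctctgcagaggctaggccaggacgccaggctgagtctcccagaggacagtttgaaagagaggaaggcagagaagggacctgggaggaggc
Muc1: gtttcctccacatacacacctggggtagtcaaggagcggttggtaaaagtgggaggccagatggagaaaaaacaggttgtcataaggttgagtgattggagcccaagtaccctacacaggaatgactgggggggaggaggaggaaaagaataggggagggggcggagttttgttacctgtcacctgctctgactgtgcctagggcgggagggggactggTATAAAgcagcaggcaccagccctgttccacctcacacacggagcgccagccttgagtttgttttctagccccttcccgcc
Agr2: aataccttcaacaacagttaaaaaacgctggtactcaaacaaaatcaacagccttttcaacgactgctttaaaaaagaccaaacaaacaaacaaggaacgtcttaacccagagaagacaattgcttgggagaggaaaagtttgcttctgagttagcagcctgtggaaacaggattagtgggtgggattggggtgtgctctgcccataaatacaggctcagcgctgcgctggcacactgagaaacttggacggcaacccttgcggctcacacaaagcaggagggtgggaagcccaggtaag

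The motifs searched were TGTTTAC for forkhead (FOXA) factors, AGATAA for GATA factors, CAAAGTCCA for HNF4, AACAATG for SOX factors, and TATAAA for the TATA box. Matches did not overlap each other in the windows of these 4 genes. The upstream Hnf4a window held 1 GATA match, which began 52 bases before the start site. The downstream Hnf4a window held no match. The Muc1 window held a TATA match 31 bases before the start site, and the Agr2 window held none of the 5 motifs. Of 3 Foxa2 windows, 1 held matches to GATA and to TATA. Of 32851 windows of the same length in the table, 11.178% held the GATA letters, 13.616% TATA, 3.65% FOXA, 3.784% SOX and 0.475% HNF4, so that a match is a description of the letters and not a binding site.

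Across the 8 genes, no difference between KO and WT tumours passed the test, and the range of CPM in KO tumours overlapped that in WT tumours for every gene. The edgeR quasi-likelihood test called 0 of 8 at an adjusted p under 0.05, beside 3 of 16536 genes tested (0.0181%), and 0 of 8 had an unadjusted p under 0.05 in either direction, beside 8.57% of all genes tested that were higher in KO tumours and 15.5% that were lower. No gene of the 8 separated the groups completely, beside 3.60% of all genes. DESeq2, which gave no p for Tff1, called 0 of the others, beside 3.19% of the 18612 genes with an adjusted p called higher and 4.81% called lower. All 8 passed the filter on low counts. The fitted log2 fold change (KO against WT) was above 0 for 1 gene and below 0 for 7, with a median of -0.12. Over all genes tested, it was above 0 for 7943 and below 0 for 8593, with a median of -0.026. With libraries scaled to a list of pan-epithelial genes in place of TMM, 5 of the 8 were above 0 and 3 below, with a median of 0.05. Over all genes that scaling put 9648 above 0 and 6888 below, with a median of 0.13.

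**Figure D1:**
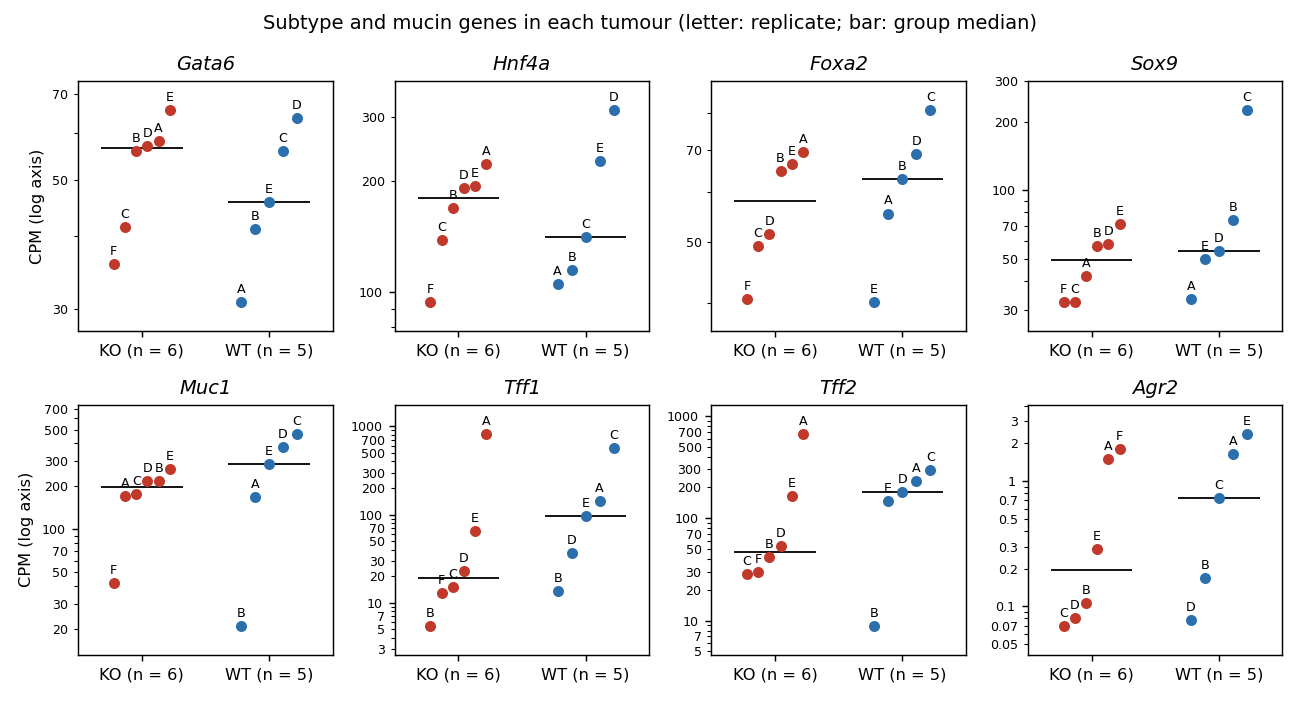
CPM of each gene in each tumour on a log axis, with KO tumours in red, WT tumours in blue, replicate letters above the points and a bar at the group median. The groups overlap for all 8 genes, and the points lie close together for Foxa2 and far apart for Tff1.

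Libraries held between 16294128 counts (WT B) and 31121422 counts (WT E), and 3 counts, taken as the lowest level that could be seen, equal 0.0964 to 0.184 CPM, for counting error only. Ribosomal RNA took 0.308 to 0.739% of counts in the KO libraries and 0.241 to 6.39% in the WT libraries, with the highest share in WT B. That share, also where it is a covariate below, counts only the mitochondrial ribosomal RNA genes and Gm42418, not all ribosomal RNA. Acinar cell genes, a sign of normal pancreas in the piece, summed to 7.53 to 727 CPM in the KO group (highest in KO E) and to 12.96 to 2150 CPM in the WT group (highest in WT E). Genes of epithelium in general (12 genes, such as Epcam, Cdh1 and Krt19) summed to a median of 3633 CPM in the KO group (2539 to 4899) and of 5455 CPM in the WT group (3085 to 8115). The epithelial sums overlapped, with WT A the highest and WT B the lowest of the WT tumours. The scaling to these genes used their geometric mean, in which the low genes weigh as much as the keratins, and by that measure KO F was the highest KO tumour (48.9, beside 24.7 to 34.6) although it had the lowest sum. The part of epithelial content in the results below was not tested beyond the scaling above.

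Gata6, on chromosome 18 (GRCm38, 11052064 to 11085635, plus strand), encodes the zinc finger factor whose loss marks the basal-like state in patients. In KO tumours it ranged from 35.8 CPM (KO F) through a median of 56.5 to 65.8 CPM (KO E). In WT tumours it measured 30.8, 41.1, 56.0, 63.8 and 45.8 CPM in replicates A to E. The groups covered almost the same range, and 4 of 6 KO tumours lay above the WT median. The means were 52.4 ± 11.3 CPM (SD, n = 6) and 47.5 ± 12.9 CPM (SD, n = 5), and the log2 fold change was 0.14 (SE 0.21, 95% interval -0.32 to 0.60; edgeR, adjusted p = 0.711). On the opposite strand, 93 bases of Gata6 exon are shared with 1010001N08Rik, which a stranded count keeps apart.

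Hnf4a, on chromosome 2 (163506808 to 163572910, plus strand), encodes a nuclear receptor of liver and gut epithelium and has the alternative starts printed above, which counts over the whole gene cannot separate. KO tumours ranged from 93.6 CPM (KO F) through a median of 180 to 223 CPM (KO A). WT tumours measured 105, 115, 141, 313 and 227 CPM in replicates A to E. Both the highest tumours were WT, D and E, and the lowest was KO F, so that the KO tumours lay mostly inside the WT range. The means were 168 ± 46.4 CPM (SD, n = 6) in KO and 180 ± 88.7 CPM (SD, n = 5) in WT tumours. The log2 fold change was -0.10 (SE 0.30, 95% interval -0.75 to 0.56; edgeR, adjusted p = 0.867), and it was 0.20 without WT D and -0.68 without WT A, B and C together (edgeR, adjusted p = 0.268).

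Foxa2, on chromosome 2 (148042877 to 148046969, minus strand), encodes a forkhead factor that opens chromatin in endoderm, and it had the smallest spread within genotypes of the 8 genes. KO tumours ranged from 40.6 CPM (KO F) through a median of 58.1 to 69.5 CPM (KO A). WT tumours measured 55.5, 63.0, 80.9, 69.0 and 40.2 CPM in replicates A to E. WT tumours held both the highest value (C) and the lowest (E). The means were 57.0 ± 11.5 CPM (SD, n = 6) in KO and 61.7 ± 15.2 CPM (SD, n = 5) in WT tumours. The log2 fold change was -0.11 (SE 0.20, 95% interval -0.54 to 0.31; edgeR, adjusted p = 0.749).

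Sox9, on chromosome 11 (112782224 to 112787760, plus strand), had the smallest p of the 8 genes, and that p rested on 1 tumour. KO tumours ranged from 32.3 CPM (KO F) through a median of 49.3 to 70.8 CPM (KO E). WT tumours measured 33.5, 74.1, 225, 54.4 and 49.8 CPM in replicates A to E. WT C stood at 225 CPM, while the other WT tumours covered about the same range as the KO tumours. The means were 48.7 ± 15.6 CPM (SD, n = 6) in KO and 87.4 ± 78.3 CPM (SD, n = 5) in WT tumours. The log2 fold change was -0.84 (SE 0.43, 95% interval -1.77 to 0.08; edgeR, adjusted p = 0.246), and without WT C it was -0.12. The mean of log2(CPM + 1) differed by -0.55 (exact permutation test over 462 arrangements of the tumours, two-sided, p = 0.297).

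Muc1, on chromosome 3 (89229057 to 89233381, plus strand), encodes the mucin that spans the apical membrane of duct cells. KO tumours measured 42.0 CPM in KO F, and the other KO tumours lay between 172 CPM (KO A) and 264 CPM (KO E), with a median over all 6 of 197 CPM. WT tumours measured 169, 21.03, 469, 378 and 289 CPM in replicates A to E. All 6 KO tumours lay below the WT median of 289 CPM, but WT B was the lowest of all 11 tumours and WT A lay below 5 of the KO tumours. The means were 182 ± 76.0 CPM (SD, n = 6) in KO and 265 ± 176 CPM (SD, n = 5) in WT tumours. The log2 fold change was -0.55 (SE 0.58, 95% interval -1.80 to 0.71; edgeR, adjusted p = 0.579), from -0.85 without WT B to -0.24 without WT C. WT B had the fewest counts and the most ribosomal RNA of all libraries, and with the ribosomal share as a covariate the log2 fold change was -1.09 (edgeR, adjusted p = 0.695).

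The trefoil factors lie close to each other on the minus strand of chromosome 17, Tff1 at 31161395 to 31165277 and Tff2 at 31141049 to 31144282. They encode small peptides of gastric mucus, and their levels spread over a wider range between tumours than those of nearly all genes tested. Tff1 in KO tumours ranged from 5.44 CPM (KO B) through a median of 19.1 to 829 CPM (KO A), 152-fold from lowest to highest. Tff1 in WT tumours measured 141, 13.6, 576, 36.4 and 96.2 CPM in replicates A to E, a 42.4-fold range. KO A and WT C stood far above the other tumours, 1 in each group. Of the 6 KO tumours, 5 lay below the WT median, while KO A lay above every WT tumour. The mean was 158 ± 329 CPM (SD, n = 6) in KO and 173 ± 231 CPM (SD, n = 5) in WT tumours. The log2 fold change was -0.13 (SE 1.24, 95% interval -2.80 to 2.55; edgeR, adjusted p = 0.960), an interval that takes in large changes either way. Without KO A it was -2.83 (edgeR, adjusted p = 0.157), and without WT C it was 1.14. On the opposite strand, 221 bases of Tff1 exon are shared with Gm15318.

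Tff2 in KO tumours ranged from 28.4 CPM (KO C) through a median of 47.3 to 671 CPM (KO A), a 23.6-fold range. In WT tumours it measured 233, 8.84, 297, 180 and 146 CPM in replicates A to E. The highest tumour was again KO A, the lowest was WT B, and 4 of the 5 WT tumours lay between 146 and 297 CPM. In 5 of the 6 KO tumours Tff2 lay below the WT median of 180 CPM. The means were 165 ± 253 CPM (SD, n = 6) and 173 ± 108 CPM (SD, n = 5), and the log2 fold change was -0.07 (SE 0.90, 95% interval -2.01 to 1.87; edgeR, adjusted p = 0.969). Without KO A it was -1.44 (edgeR, adjusted p = 0.261). The means of log2(CPM + 1) differed by -1.27 for Tff1 and -0.52 for Tff2 (exact permutation test, two-sided, p = 0.379 and p = 0.649).

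Agr2, on chromosome 12 (35992907 to 36004087, plus strand), was close to the limit of detection. Raw counts were 43, 3, 2, 2, 7 and 45 in KO replicates A to F, and 38, 2, 15, 2 and 81 in WT replicates A to E. In 5 tumours, KO B, C and D and WT B and D, there were no more than 3 counts, while KO A, KO F, WT A and WT E held 38 or more. The high and the low tumours came from both genotypes. The means were 0.643 ± 0.797 CPM (SD, n = 6) in KO and 1.01 ± 0.997 CPM (SD, n = 5) in WT tumours, and the log2 fold change was -0.68 (SE 0.94, 95% interval -2.72 to 1.36; edgeR, adjusted p = 0.682). Its relative Agr3, in the list of other classical genes, had no count in any tumour.

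**Figure D2:**
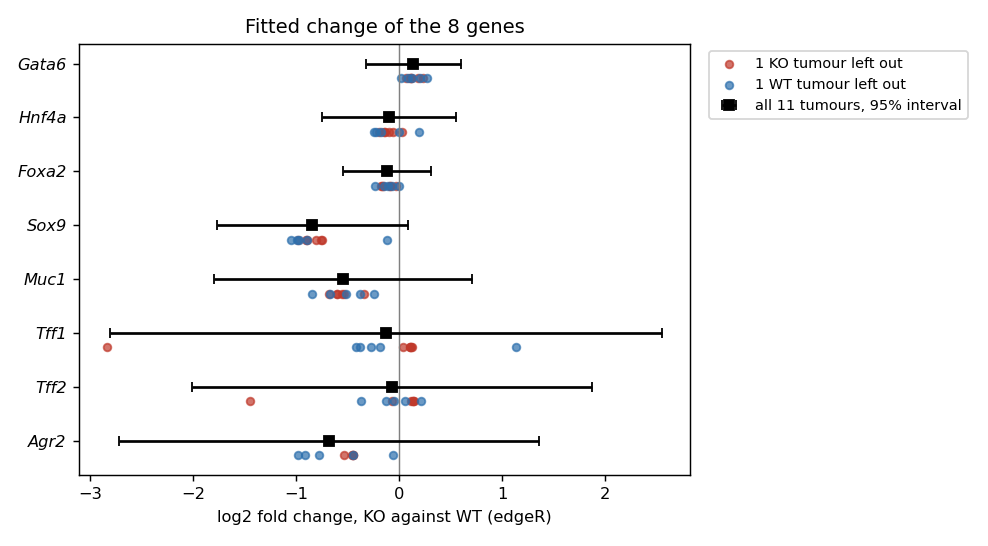
Log2 fold change (KO against WT, edgeR) of the 8 genes on the horizontal axis, as black squares with 95% intervals for all 11 tumours, and as points with 1 KO tumour (red) or 1 WT tumour (blue) left out. All 8 intervals include 0, and leaving out KO A moves Tff1 from -0.13 to -2.83.

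Within a genotype, the spread between tumours, as the SD of log2(CPM + 1), differed widely among the 8 genes. Over all genes tested, the within-group SD lay at percentile 99.9 for Tff1, 99.8 for Tff2 and 99.2 for Muc1. It lay at percentile 93.3 for Sox9, 89.4 for Agr2, 80.6 for Hnf4a, 48.5 for Gata6 and 41.6 for Foxa2. Gata6 and Foxa2 thus varied about as much as a typical gene, while Tff1, Tff2 and Muc1 were among the most variable 1% of genes. Among the 500 genes nearest to it in level, 59.8% had a smaller within-group SD than Gata6, 50% than Foxa2, 83% than Hnf4a, 97% than Sox9, 98% than Agr2 and 99.6% than Muc1, and all of them had a smaller one than Tff1 and Tff2.

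Levels were compared between genes as CPM per kilobase of exon. The median over the 11 tumours was 250 for Tff2, 92.6 for Muc1, 51.7 for Tff1, 35.1 for Hnf4a, 26.6 for Foxa2, 13.2 for Sox9, 8.59 for Gata6 and 0.22 for Agr2. Neighbours in the upper part of this order were not separated, since Muc1 exceeded Tff1 in 5 of 11 tumours and Tff1 exceeded Hnf4a in 5 of 11. Tff2 exceeded Muc1 in 8 tumours and Hnf4a exceeded Foxa2 in 8. The lower part was stable, as Foxa2 exceeded Sox9 in 10 of 11 tumours, Sox9 exceeded Gata6 in 11 and Gata6 exceeded Agr2 in 11. The highest of the 8 per kilobase was Tff1 in KO A and WT C, Muc1 in KO B, C and D, Tff2 in KO E, KO F, WT A, WT D and WT E, and Foxa2 in WT B, where the mucin and trefoil genes were low.

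**Figure D3:**
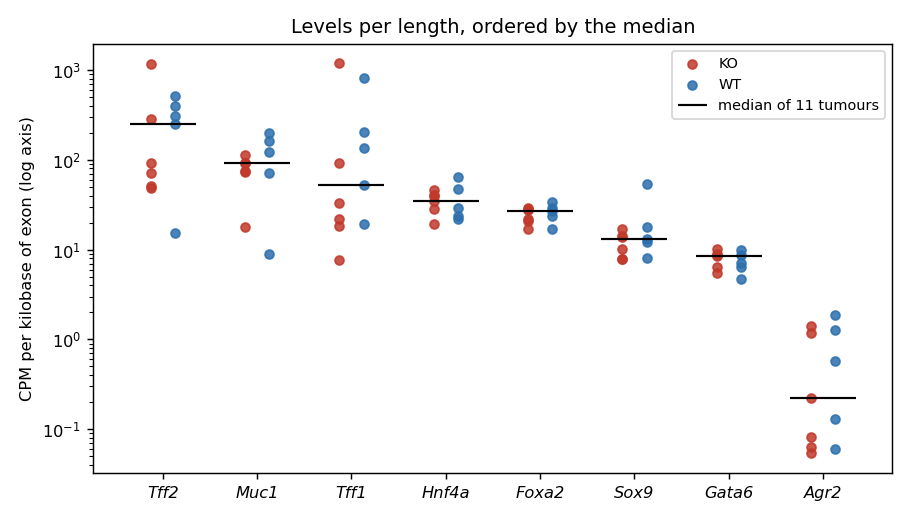
CPM per kilobase of exon on a log axis for the 8 genes, ordered by the median over 11 tumours (bar), with KO tumours in red and WT tumours in blue. Tff2 has the highest median at 250, Agr2 the lowest at 0.22, and Tff1 spans the widest range.

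The 8 genes were only in part high or low in the same tumours. KO F was the lowest KO tumour for Gata6, Hnf4a, Foxa2, Sox9 and Muc1, while KO A was the highest for Hnf4a, Foxa2, Tff1 and Tff2. WT B was lowest for Muc1, Tff1 and Tff2 among WT tumours but not for any of the 4 transcription factors. Over the 11 tumours, Tff1 and Tff2 had a Pearson r of 0.872 (Spearman rho 0.882), and 0.802 without KO A and WT C. Even so, the ratio of Tff1 to Tff2 raw counts ran from 0.132 in KO B to 1.94 in WT C. Gata6 and Hnf4a had r of 0.797 (rho 0.809), and 0.634 without KO F and WT A. Muc1 and Tff2 had r of 0.698, which was 0.218 without KO F and WT B. Gata6 and Agr2 had r of -0.46, which was -0.085 without KO F and WT A. These correlations describe 11 tumours of both genotypes, and the values of a pair come from the same library in each tumour, so that its composition, carcinoma content and depth enter both. For Tff1 with Tff2 and Gata6 with Hnf4a, r on values centred within genotype was 0.875 and 0.823.

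For each gene, the 3 most alike of 13378 protein-coding genes with a mean of at least 1 CPM were found by Pearson r of log2(CPM + 1) over the 11 tumours. The highest r was 0.984 for Sox9 with Sox4, another SOX family factor, and 0.949 without KO F and WT C. Sox4 stood at 803 CPM in WT C and at 225 to 373 CPM in the other tumours, close to the Sox9 pattern. Tff2 was most like Fam83e (r = 0.977), Perp (0.958), which encodes a desmosome protein, and Lgals4 (0.952), which encodes galectin-4 of gut epithelium. Tff1 was most like Kcnn4 (0.941), a potassium channel gene, Galntl6 (0.935) and Abhd17c (0.899). Muc1 was most like Cdh1 (0.937), the gene of E-cadherin, Mpzl2 (0.935) and Mfsd4a (0.928). Hnf4a was most like Cast (0.960), Myo5c (0.954) and Fam120b (0.947), and Gata6 was most like Tet1 (0.974), Nol4l (0.954) and Zfp266 (0.942). The best matches were weaker for Foxa2, namely N6amt1 (0.900), Cutal (0.888) and Abhd14b (0.885), and for Agr2, namely Ung (0.881), Kbtbd8 (0.873) and Mphosph10 (0.862). Without the 2 tumours farthest from the median of each of the 8, r was lowest for Mpzl2 (0.661), Abhd17c (0.671) and N6amt1 (0.769). Spearman rho over the 11 tumours was lowest for Ung (0.709) and Mphosph10 (0.727). These genes were picked for their r, and no test was made.

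Stomach surface cells secrete Tff1 with the gel-forming mucin Muc5ac, so those genes were set beside the trefoil factors. KO A, the tumour with the most Tff1 and Tff2, had 266 CPM of Muc5ac, 34.5 CPM of Muc5b and 363 CPM of the gastrokine gene Gkn2. In the other KO tumours, Muc5ac ranged from 0.201 CPM (KO F) to 29.1 CPM (KO D) and Gkn2 from 1.33 CPM (KO B) to 12.6 CPM (KO C). WT C, the other tumour rich in Tff1, had 13.7 CPM of Muc5ac and 80.8 CPM of Gkn2, the highest WT values of both. WT B, lowest for Tff2, had 0.083 CPM of Muc5ac, 0.25 CPM of Gkn2 and 0.25 CPM of Muc5b, each from 3 counts or fewer. The gastric list of 6 genes measured summed to 416 CPM in KO A, to 2.70 to 416 CPM over the KO tumours with a median of 12.2, and to 2.34 to 117 CPM over the WT tumours with a median of 70.0. Genes of the gastric list did not all follow KO A. Gkn1 was highest there, at 46.6 CPM, but Gkn3 had 2.38 CPM in KO A, 0.211 to 2.54 CPM over the KO tumours and 8.55, 0.668, 6.14, 6.66 and 4.94 CPM in WT tumours A to E, with a log2 fold change of -2.27 (edgeR, adjusted p = 0.102; DESeq2, adjusted p = 0.0144). Pgc, of the pepsinogen-secreting chief cell, had 0.70 CPM in KO A, below KO D, KO E, WT C, WT D and WT E. Atp4b, of the acid-secreting parietal cell, had no count in any tumour, and its partner Atp4a reached at most 3.26 CPM, in KO A. Whether stomach tissue in the piece had a part in the trefoil values was not tested beyond these markers.

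**Figure D4:**
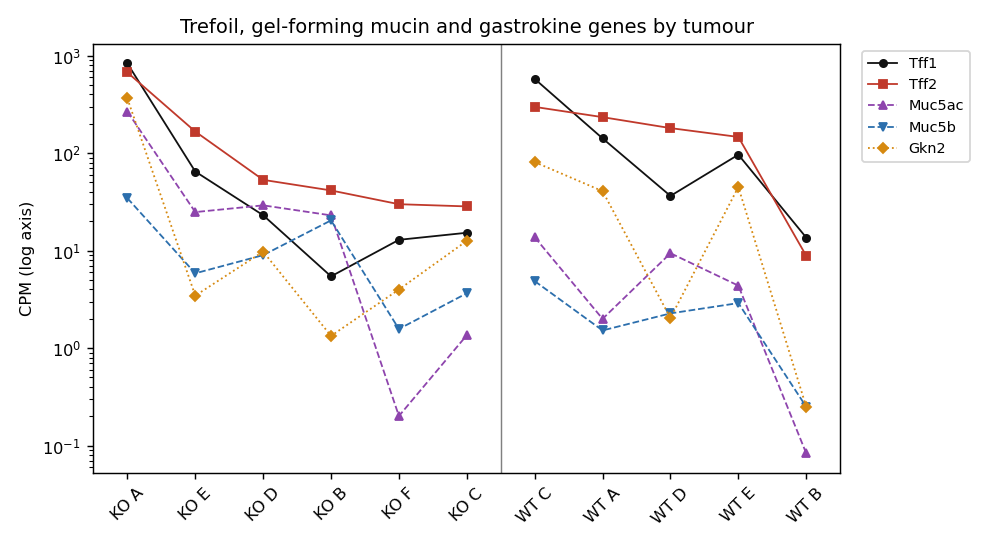
CPM on a log axis of Tff1, Tff2, Muc5ac, Muc5b and Gkn2 in each tumour, with KO and WT tumours apart and each group sorted by Tff2. Lines only join the points of 1 gene. KO A is highest for all 5 genes, and WT B is lowest of the WT tumours for all 5.

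The other genes of the programme were described with 6 lists of 98 genes, of which 71 were tested. No listed gene was called by edgeR at an adjusted p under 0.05, 6 had an unadjusted p under 0.05 and were higher in KO tumours (8.57% of all genes tested were), and 10 were lower (15.5% of all genes). DESeq2 called 1 listed gene higher (Muc5b) and 4 lower (Anxa10, Vsig2, Spdef and Fgfbp1), beside 3.19% and 4.81% of all genes. Fgfbp1 is not among the 71, since it did not pass the edgeR filter. The counts for each list are given as description.

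Among 17 other classical subtype genes, 12 were tested, 0 had an unadjusted p under 0.05 and were higher, 3 were lower, and the median log2 fold change was -0.31 (0.08 with pan-epithelial scaling, beside 0.13 over all genes). Anxa10, an annexin of gastric epithelium, had 3.02 to 35.9 CPM in KO tumours and 75.9, 74.2, 61.7, 41.8 and 55.6 CPM in WT tumours A to E. Every KO tumour lay below every WT tumour, and the log2 fold change was -1.67 (edgeR, SE 0.41, adjusted p = 0.0869; DESeq2, adjusted p = 0.0055). Vsig2 also did not overlap between groups, at 0.725 to 1.06 CPM in KO and 1.29 to 7.33 CPM in WT tumours. Its log2 fold change was -1.77 (edgeR, SE 0.45, adjusted p = 0.0869; DESeq2, adjusted p = 0.0066). Without WT E, the tumour with 7.33 CPM, it was -1.03. Anxa10 and Vsig2 were the only 2 of the 71 listed genes tested with no overlap between groups, beside 3.60% of all genes tested. Spink4 had a log2 fold change of -1.44 (edgeR, adjusted p = 0.157) and Cdh17, an intestinal cadherin, of 0.43 (edgeR, adjusted p = 0.386). Tff3, the remaining trefoil factor, which the naming rule did not pick, averaged 2.46 ± 4.09 CPM (SD, n = 6) in KO and 2.78 ± 2.38 CPM (SD, n = 5) in WT tumours.

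Among 22 basal-like subtype genes, 9 were tested, 1 had an unadjusted p under 0.05 and was higher, 1 was lower, and the median was 0.18 (0.36 with pan-epithelial scaling). Ly6d had a log2 fold change of 1.16 (edgeR, adjusted p = 0.171), the EGF family ligand Areg of -1.32 (edgeR, adjusted p = 0.144), Scel of 0.78 and the duct keratin Krt7 of -0.68 (-0.18 without WT A). The squamous keratins Krt5 and Krt6b had no count in any tumour. Fgfbp1, which the naming rule did not pick, was lower by DESeq2 alone, with a log2 fold change of -2.24 (DESeq2, adjusted p = 0.0387).

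Among 21 other gut and pancreas transcription factors, 20 were tested, 0 had an unadjusted p under 0.05 and were higher, 2 were lower, and the median was 0.037 (0.22 with pan-epithelial scaling). Spdef, a factor of mucus-secreting cells, had 0.14 to 1.93 CPM in KO tumours and 3.73, 0.167, 5.11, 9.44 and 4.11 CPM in WT tumours A to E. Only WT B, at 2 counts, overlapped the KO tumours, and the log2 fold change was -2.27 (edgeR, SE 0.72, adjusted p = 0.108; DESeq2, adjusted p = 0.0193). Klf5 had a log2 fold change of -0.69 (edgeR, adjusted p = 0.195; -0.20 without WT C) and Foxa3 of -0.56.

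Among 12 other mucins, 6 were tested, 3 had an unadjusted p under 0.05 and were higher, 1 was lower, and the median was 0.92 (1.67 with pan-epithelial scaling). Muc5b, a gel-forming mucin, had 34.5, 20.4, 3.65, 8.98, 5.85 and 1.57 CPM in KO tumours A to F and 1.52, 0.25, 4.86, 2.27 and 2.90 CPM in WT tumours A to E. KO A, B, D and E lay above every WT tumour, and the log2 fold change was 2.38 (edgeR, SE 0.78, adjusted p = 0.113; DESeq2, adjusted p = 0.046). Muc5ac had a log2 fold change of 3.27 (edgeR, SE 1.37, adjusted p = 0.174), which was 1.40 without KO A. KO A, B, D and E lay above every WT tumour for Muc5ac, and KO C and KO F did not. Muc13 had a log2 fold change of 1.70 (edgeR, adjusted p = 0.157) at a mean of 1.13 CPM in KO tumours, and the membrane mucin Muc4 of -1.60 (edgeR, adjusted p = 0.137).

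Among 14 enzymes of mucin O-glycosylation, 13 were tested, 2 had an unadjusted p under 0.05 and were higher, 0 were lower, and the median was 0.076 (0.40 with pan-epithelial scaling). C1galt1c1, the chaperone of the core 1 synthase, had a log2 fold change of 0.47 (edgeR, adjusted p = 0.129), Galnt1 of 0.33, Galnt6 of 0.68 and Galnt4 of 0.49. Among 12 pan-epithelial genes, 11 were tested, 0 had an unadjusted p under 0.05 and were higher, 3 were lower, and the median was -0.92, beside -0.12 for the 8 genes and -0.026 over all genes. Krt19 had a log2 fold change of -0.92 (edgeR, adjusted p = 0.128), Epcam of -1.62 (edgeR, adjusted p = 0.195; -0.51 without WT A, which had 287 CPM), Krt18 of -0.54 (-0.26 without WT A) and Krt8 of -0.57.

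**Figure D5:**
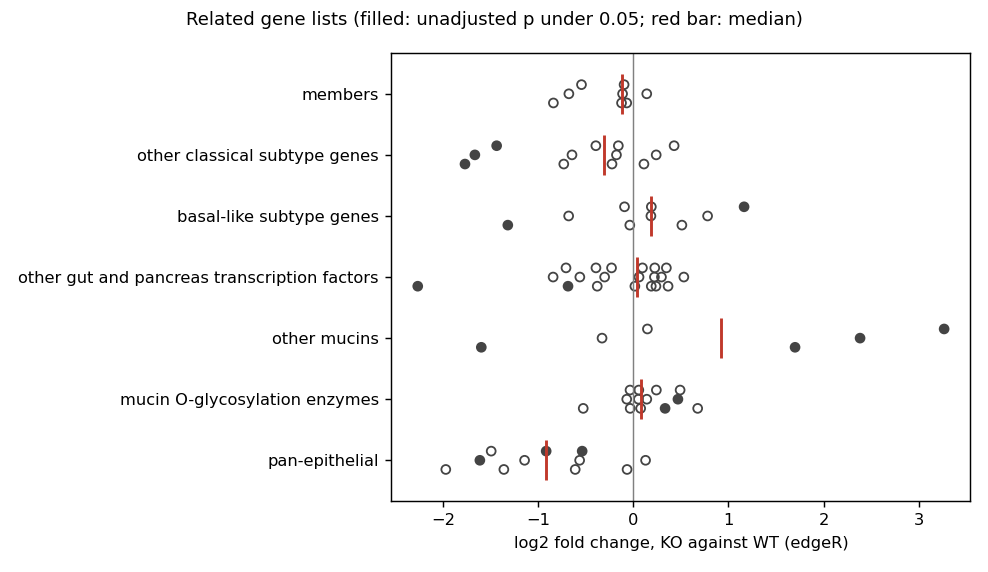
Log2 fold change (KO against WT, edgeR with TMM scaling) of each tested gene by list, with filled points for an unadjusted p under 0.05 and a red bar at the list median. The 8 genes, marked members, hold no filled point and have a median of -0.12, while the other mucins spread from -1.60 to 3.27.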

How the data were processed

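Per the labels and the study's methods, RNA from pieces of 11 tumours was made into strand-specific libraries. The submitters' processing notes name bcl2fastq 2.19, Trimmomatic, HISAT2 2.1.0 and HTSeq 0.11.2 and the genome build mm10. The authors deposited whole-number raw counts for each gene and a normalised signal, which was each raw count divided by 1 factor per tumour (largest relative deviation 5.51e-10). Tests used the deposited counts, and the signal served only as an alternative for the levels per kilobase.

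Of 54232 identifiers, 54165 had a symbol in GENCODE M21 (GRCm38), which also gave positions and exon lengths. Tests were run in edgeR 4.0.16 with its quasi-likelihood method (R 4.3.3), with TMM scaling, filterByExpr, no covariate and Benjamini-Hochberg adjustment over 16536 genes at 0.05. Log2 values used a pseudocount of 1 CPM. The procedure was tested on artificial counts. DESeq2 1.42.0 and other scalings, filters and sets of tumours were alternatives, and the exact permutation test was chosen after seeing the data.

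Named were the 8 genes, any listed gene called, the 4 genes of each list with the smallest p, the 3 genes most like each of the 8, Pkn2, and markers beside a result. Of the genes picked by this rule, all but 1 are reported here. The 8 genes were not named by their values, but they and the lists were chosen with earlier results of these data known. The labels name no batch, and p-values set the difference between groups against an estimate of the spread between these tumours.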

Additional observations from a re-analysis of the deposited data

Results flagged for a closer look

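In each genotype, the gap of the highest or lowest tumour to its nearest neighbour, divided by the range of the group, was compared with Dixon's 95% critical value for a group of that size, on log2(CPM + 1). Of 50 groups examined, 6 held a tumour past that value, where chance gives about 1 in 20, or 2.5. For Muc1, KO F stood low at 5.43, with the other KO tumours at 7.43 to 8.05 (gap 0.765). For Tff2, WT B stood low at 3.30, with the other WT tumours at 7.2 to 8.22 (gap 0.793).

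The other 4 were sums over gene lists. The other mucins summed to 1.06 in WT B, with the other WT tumours at 4.04 to 4.85 (gap 0.785). The acinar genes summed to 9.51 in KO E, with the other KO tumours at 3.09 to 3.87 (gap 0.879). The islet genes summed to 6.40 in KO F, with the other KO tumours at 0.758 to 1.77 (gap 0.820). The gastric genes summed to 8.70 in KO A, with the other KO tumours at 1.89 to 4.41 (gap 0.630).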

How the results depend on the processing

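None of the 8 genes was called in any fit run, so the number called was 0 throughout. Leaving out 1 tumour at a time gave log2 fold changes of 0.02 to 0.27 for Gata6, -0.24 to 0.20 for Hnf4a, -0.23 to 0.0040 for Foxa2, -1.05 to -0.12 for Sox9, -0.85 to -0.24 for Muc1, -2.83 to 1.14 for Tff1, -1.44 to 0.21 for Tff2 and -0.98 to -0.06 for Agr2. Agr2 fell below the filter without KO A and without KO F, and with at least 10 counts asked of every tumour. An unadjusted p under 0.05 was reached by Tff1 without KO A, by Sox9 without WT A, without WT E and without WT B and E, and by Hnf4a without WT A, B and C (-0.68), with edgeR adjusted p from 0.15 to 0.268. DESeq2 gave Tff1 a log2 fold change of -0.11 and no p.

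The sign turned under these settings. With the ribosomal share as a covariate, Foxa2 was at 0.033 and Tff1 at 0.24, and Muc1 moved to -1.09 and Agr2 to -1.29 with no change of sign. With pan-epithelial scaling, Hnf4a was at 0.071, Foxa2 at 0.024, Tff1 at 0.65 and Tff2 at 0.62, against a median of 0.13 over all genes. Without WT tumours A, B and C together, Gata6 was at -0.062, Foxa2 at 0.068, Tff1 at 1.28 and Tff2 at 0.034. The cause was not tested.

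Replicate letters A to E occur in both genotypes but belong to different animals, and neither the labels nor the methods say what a letter marks. The correlation of deviations between tumours with the same letter was 0.163, 0.0241, -0.172, 0.13 and 0.0637 for A to E. For A alone, it was the highest of the KO tumour with any WT tumour. These values cannot show whether a letter marks a shared litter or batch, and letters were treated as names only. With a replicate block, Hnf4a was at 0.13 and Muc1 at 0.043, Agr2 at -1.52, Tff1 at -0.91 and Sox9 at -0.37, with edgeR adjusted p from 0.321 to 0.976. Letter F occurs in KO alone, so KO F had a block of its own and did not enter the difference between groups. With KO F left out and no block, Hnf4a was at 0.024 and Muc1 at -0.34. With the block, 8 genes over the whole table were called higher in KO and 1 lower, beside 3 and 0 without it.

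Over the whole table, genes called higher and lower in KO numbered 593 and 896 with DESeq2, 39 and 6 with no filter on low counts, and 175 and 105 with pan-epithelial scaling. With at least 10 counts in every tumour and with the ribosomal covariate, 0 were called higher. With WT A, B and C left out, 3 were called lower. With 1 tumour left out, 0 to 608 were called higher and 0 to 1248 lower, the most without WT E, then 203 and 651 without WT D. Listed genes called higher were 1 with DESeq2 (Muc5b) and 2 with pan-epithelial scaling (Muc5ac, 3.77, and Muc5b, 3.02). In that last fit the spread was a trend with level shared by all genes, so that it takes no account of how far Muc5ac itself varied. Listed genes called lower were 4 with DESeq2, 1 (Muc4, -2.33) without WT A, B and C, and 0 to 2 with 1 tumour left out, namely Anxa10 without KO F, WT D or WT E and Vsig2 without WT D or WT E. Depth limits Agr2 most, since 5 tumours held no more than 3 of its counts.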

Other observations

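Markers of other cell types differed in level between tumours. Of all 16536 genes tested, 7943 had a fitted value above 0. At an unadjusted p under 0.05 (edgeR), 8.57% of them were higher in KO tumours and 15.5% lower. All 4 B cell genes had an unadjusted p under 0.05 and were higher in KO tumours, with a median log2 fold change of 2.44, and Cd79a, a part of the B cell receptor, had a log2 fold change of 2.62 (edgeR, SE 0.48, adjusted p = 0.0663). All 6 macrophage genes had a fitted value above 0, 2 of them with an unadjusted p under 0.05, with a median of 0.33. Fibroblast genes summed to 4351 to 9356 CPM in KO and 2357 to 9303 CPM in WT tumours, and all 7 had a fitted value above 0, with a median of 0.41, but 0 of them had an unadjusted p under 0.05. Other lists went the other way. All 4 intestinal genes tested had a fitted value below 0, 2 of them with an unadjusted p under 0.05 (edgeR). So did all 3 acinar genes tested, 1 of them with an unadjusted p under 0.05. The duct, gastric, hepatocyte, mesothelial and endothelial lists held values on both sides of 0. Islet genes were highest in WT E (328 CPM in all) and, among KO tumours, in KO F (83.5 CPM).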
